A study of Mus musculus with 21 samples.

Results

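Rab and Arf proteins are small GTPases that mark the membranes of the cell and direct the traffic of vesicles between them. The rule takes every gene of the table whose symbol begins with Rab and a digit (Rab3 names left out), Rabgap, Rabgef, Rabep, Arl and a digit, Arfgap, Arfgef, Tbc1d, Iqsec or Dennd, or is Arf1 to Arf6 or a GDP dissociation inhibitor of Rabs. It finds 79 of the 5544 genes, 77 of them in 10 classes by role and 2 that match by name and were put in no class. Cortical RNA was sequenced in male C57BL/6 mice (C57Bl/6J in the study's methods), 12 weeks old by the sample labels and wild type by the column names, 24 h after the last of several head impacts a day on consecutive days under isoflurane, called high-frequency head impact (HF-HI, 11 mice), or after the same handling and anesthesia with no impact (sham, 10 mice). Each mouse gave 1 library, and sham mice were handled and anesthetized alike, so the design sets impacts against no impact. The libraries of the groups also differed in depth and in their trend on GC content, both given below. The labels name no batch, and what separates the groups was not tested. The 24 h cortex is the only tissue and time analysed here.

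A Rab or Arf protein works as a switch: bound to GTP it sits on a membrane and recruits effectors, and bound to GDP it is off. Guanine nucleotide exchange factors (GEFs, here the Dennd genes for Rabs and the Iqsec and Arfgef genes for Arfs) turn it on, and GTPase-activating proteins (GAPs, here the Tbc1d and Rabgap genes for Rabs and the Arfgap genes for Arfs) turn it off. GDP dissociation inhibitors (GDIs) take inactive Rabs off membranes and carry them back through the cytosol. In neurons these proteins move endosomes, lysosomes and synaptic vesicle precursors along axons and dendrites, and bring glutamate receptors to and from the synaptic membrane.

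The values are variance-stabilized and lie on a log2 scale, so a difference of 1 is close to a 2-fold change where reads are many and understates the change where they are few. They are not divided by gene length, so levels are compared between groups within a gene and never between genes. A gene was called when its adjusted p (limma's moderated test, Benjamini-Hochberg over all 5544 genes) was under 0.05. The depth of the libraries is unknown in reads. Relative to the median library, as read from the spacing of the values, it ran from 0.58 to 1.26 in sham and from 0.548 to 1.64 in HF-HI, with HF-HI replicates 9 and 11 the shallowest of their group. Ttr, the only choroid plexus marker in the table, set some libraries apart, at 11.51 in sham replicate 3, 10.63 in sham replicate 8 and 13.35 in HF-HI replicate 3, where the other 18 ran from 6.16 to 9.21. RNA came from whole cortex, so a change in the number of cells of a type and a change in RNA per cell cannot be told apart for any gene below.

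The genes split nearly evenly by direction but not by size, and so did the whole table. Of the 79, 57 were called (72.2%, where 66.3% of all genes were), 32 higher in HF-HI (40.5%, against 32.6% of all genes) and 25 lower (31.6%, against 33.6%). The called share lies near that of the whole table, so it is no result about these genes. The median difference was -0.0042, beside -0.0086 over all genes. Centring each library on its median turned the balance to 27 higher and 34 lower, as it moved all genes from 1810 higher and 1864 lower to 1448 higher of 3824 called. Members that rose by at least 0.5 numbered 7 (8.86%, against 5.74% of all genes), and no member fell by that much. Of all genes 318 rose and 13 fell by that much, so the skew in size is no trait of these genes. For 16 members no value of either group reached into the other (20.3%, against 13.5% of all genes), 12 of them higher and 4 lower. Members called higher differed by 0.082 to 1.00 (median 0.24) and members called lower by -0.28 to -0.11 (median -0.19).

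**Figure D1:**
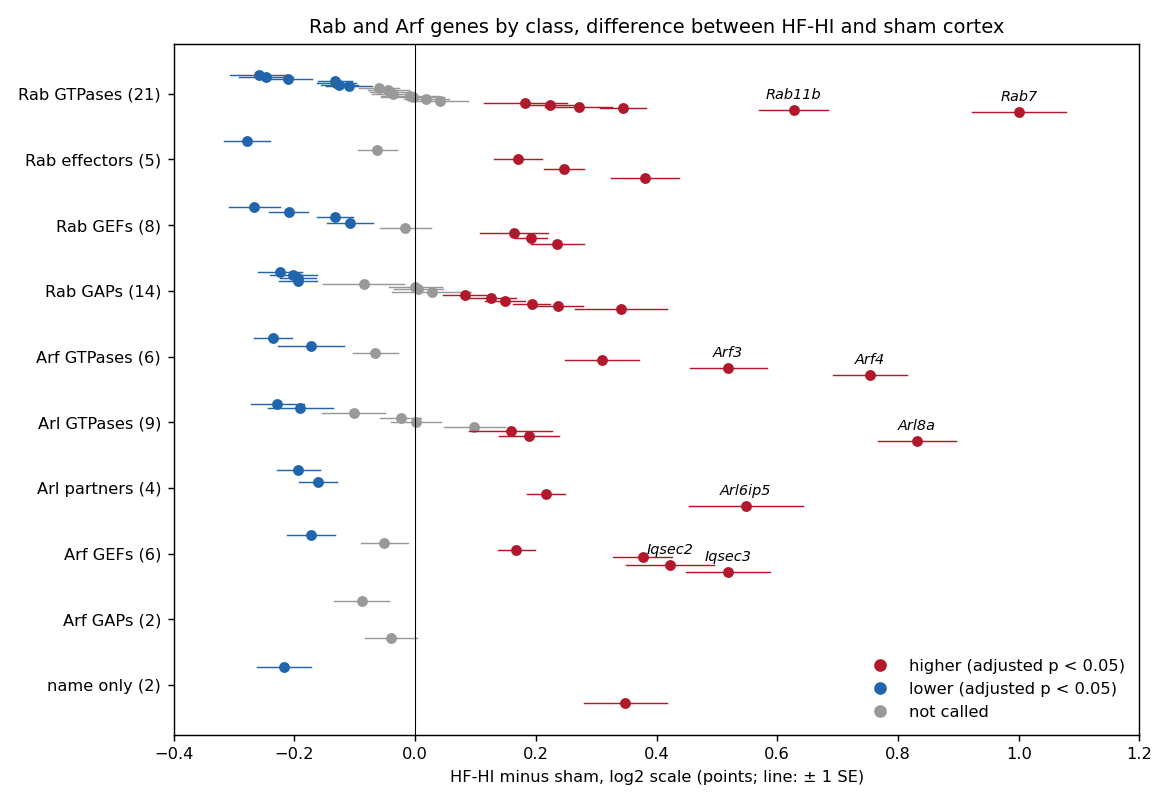
Difference of each gene between HF-HI and sham (log2 scale, horizontal axis; line, 1 SE on each side) by class for the classes shown, with the number of genes in brackets. Red and blue points were called higher and lower. Rab7 at 1.00 and Arl8a at 0.83 lie farthest right, while no gene shown lies below -0.28.

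Among the Rab GTPases the widest difference belonged to the GTPase of the late endosome. Rab7 (ENSMUSG00000079477, chr6:87999106-88045270, minus strand, GRCm38 as for all positions given) directs endosomes to lysosomes and their transport back along the axon. Its values ran from 9.25 to 10.03 in sham (median 9.78) and from 10.51 to 10.76 in HF-HI (median 10.71). Each HF-HI library lay above each sham library. The group mean was 10.68 ± 0.0785 for HF-HI (SD, n = 11), with 9.68 ± 0.267 for sham (SD, n = 10), a difference of 1.00 (SE 0.0778, adjusted p = 5.89e-10). Within sham it fell into a low set and a high set: sham replicates 1, 2 and 3 lay at 9.25 to 9.37 and the other 7 at 9.71 to 10.03. Without those 3 the difference was 0.84, still called. Of its exonic 50-base stretches 11.2% also occur in another gene, nearly all in the pseudogene Rab7-ps1, so its level is uncertain.

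The Rabs of the recycling endosome moved apart. Rab11b (ENSMUSG00000077450, chr17:33742484-33760530, minus strand), which with Rab11a returns receptors from recycling endosomes to the surface, rose. Across the libraries it ran from 9.42 to 9.86 in sham (median 9.63) and from 10.17 to 10.36 in HF-HI (median 10.27). No value of a group reached into the other. Means over mice were 10.26 ± 0.0643 for HF-HI (SD, n = 11), with 9.63 ± 0.188 for sham (SD, n = 10), a difference of 0.63 (SE 0.0572, adjusted p = 5.88e-09). Of its 50-base stretches 9.47% occur in other genes, so its level is uncertain too. Rab11a (ENSMUSG00000004771, chr9:64715299-64737758, minus strand) fell. It ran from 11.05 to 11.47 in sham (median 11.20) and from 10.90 to 11.02 in HF-HI (median 10.96). Here every HF-HI library lay under every sham library. On average the value was 10.96 ± 0.0408 for HF-HI (SD, n = 11), with 11.22 ± 0.156 for sham (SD, n = 10), a difference of -0.26 (SE 0.0473, adjusted p = 5.28e-05). Within each library, Rab11a minus Rab11b was 1.59 ± 0.287 for sham (SD, n = 10), with 0.70 ± 0.0915 for HF-HI (SD, n = 11), a log2 gap that takes no account of gene length. The gaps of the groups did not overlap.

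The other 18 Rabs differed by 0.34 or less in either direction. Rab1a, which serves transport from the endoplasmic reticulum to the Golgi, rose by 0.34 with no overlap of the groups (adjusted p = 9.05e-08), and its paralogue Rab1b was at -0.0042 (adjusted p = 0.948). Rab6b, the Golgi Rab enriched in neurons, rose by 0.27, and Rab6a was at -0.044, not called. Rab21, an endosomal Rab, rose by 0.22 with no overlap. Rab18 rose by 0.18 with the highest adjusted p of the called Rabs (0.0216) and was not called by the Wilcoxon test or under either rescaling of the libraries. It stood at 0.11 without HF-HI replicates 9 and 11 and at 0.12 without sham replicates 1, 2 and 3, not called in either case. Rab27b, which docks secretory vesicles, fell the most after Rab11a (HF-HI minus sham -0.25, SE 0.0442, adjusted p = 4.23e-05), from a sham range of 9.12 to 9.36 (median 9.30) to 8.90 to 9.35 in HF-HI (median 9.003). All HF-HI libraries but replicate 9 lay under the sham range. Rab28 fell by 0.21, and Rab14, Rab15, Rab22a and Rab5a fell by between 0.11 and 0.13. Of the early endosome Rabs, Rab5a was called lower (-0.11), Rab5b was at 0.019 and Rab5c at -0.041, and differences among the 3 were not tested. With the GC trend described below removed, Rab5c was called lower (-0.17), while Rab5a and Rab14 were not called. Nor was Rab5a called without the 3 libraries high in Ttr (Rab5a log2 difference -0.072). Rab2a, Rab8b, Rab10 and Rab12 were not called either, at -0.0086, 0.041, -0.037 and -0.060. In all, 6 Rabs of 21 were higher, 7 lower and 8 not called.

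Promoter sequence is shown for the pair that moved apart and for the GTPases with the widest rise, since these are the members the results turn on. RefSeq (GRCm38.p6) gave a promoter for 66 of the 79, and the bases before the start furthest upstream were searched on both strands for TGACG (the core of the cyclic AMP response element), CACGTG (an E-box), CCAAT and GGGCGG (a GC box). Each stretch below runs 5′ to 3′ and leaves out bases in annotated exons, and capitals mark the 4 motifs, which may overlap.
Rab7, chr6:88045271-88045520, minus strand: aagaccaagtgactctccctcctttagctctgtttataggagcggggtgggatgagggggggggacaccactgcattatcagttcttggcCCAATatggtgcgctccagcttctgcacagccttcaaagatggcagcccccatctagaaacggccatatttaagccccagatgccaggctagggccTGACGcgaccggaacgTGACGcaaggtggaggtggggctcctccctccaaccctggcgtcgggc
Arl8a, chr1:135146584-135146823, plus strand: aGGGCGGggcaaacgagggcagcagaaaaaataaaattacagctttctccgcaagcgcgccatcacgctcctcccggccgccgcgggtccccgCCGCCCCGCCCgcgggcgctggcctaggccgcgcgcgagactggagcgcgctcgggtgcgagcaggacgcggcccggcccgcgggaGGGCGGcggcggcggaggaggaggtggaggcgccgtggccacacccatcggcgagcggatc
Rab11b, chr17:33760588-33760736, minus strand: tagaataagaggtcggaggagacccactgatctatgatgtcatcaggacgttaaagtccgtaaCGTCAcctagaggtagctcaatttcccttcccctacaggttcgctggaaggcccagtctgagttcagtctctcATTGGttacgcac
Rab11a, chr9:64737759-64738006, minus strand: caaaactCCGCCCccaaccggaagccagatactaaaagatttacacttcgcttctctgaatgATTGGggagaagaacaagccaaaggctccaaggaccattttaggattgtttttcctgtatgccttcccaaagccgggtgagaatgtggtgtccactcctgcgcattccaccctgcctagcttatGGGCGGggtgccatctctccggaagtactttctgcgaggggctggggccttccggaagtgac
The stretch of Rab7 holds 2 TGACG and 1 CCAAT, that of Arl8a 4 GGGCGG and none of the others, that of Rab11b 1 TGACG and 1 CCAAT, and that of Rab11a 1 CCAAT and 2 GGGCGG. In the whole 250 bases, TGACG stood in 32.1% of the 28 promoters of members called higher, 38.1% of the 21 of members called lower, 52.9% of the 17 of members not called, 30.3% of the 4329 of the expression table and 17.8% of all 27025. CACGTG stood in 21.4%, 14.3% and 5.88% of those called higher, called lower and not called (9.17% of the table and 6.04% of all), and CCAAT in 39.3%, 66.7% and 58.8% (35.3% and 34.5%). GGGCGG stood in 78.6%, 81% and 76.5% (64.5% and 33%). These are counts of letters and were not tested.

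Gdi2 (ENSMUSG00000021218, chr13:3538063-3567871, plus strand), a GDI made in most tissues, fell. Its values ran from 11.39 to 11.73 in sham (median 11.57) and from 11.24 to 11.51 in HF-HI (median 11.34). Of 11 HF-HI libraries, 9 lay under the sham range. The group mean was 11.34 ± 0.0815 for HF-HI (SD, n = 11), with 11.58 ± 0.121 for sham (SD, n = 10), a difference of -0.23 (SE 0.0439, adjusted p = 7.45e-05). It was called lower again with the GC trend described below removed.

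**Figure D2:**
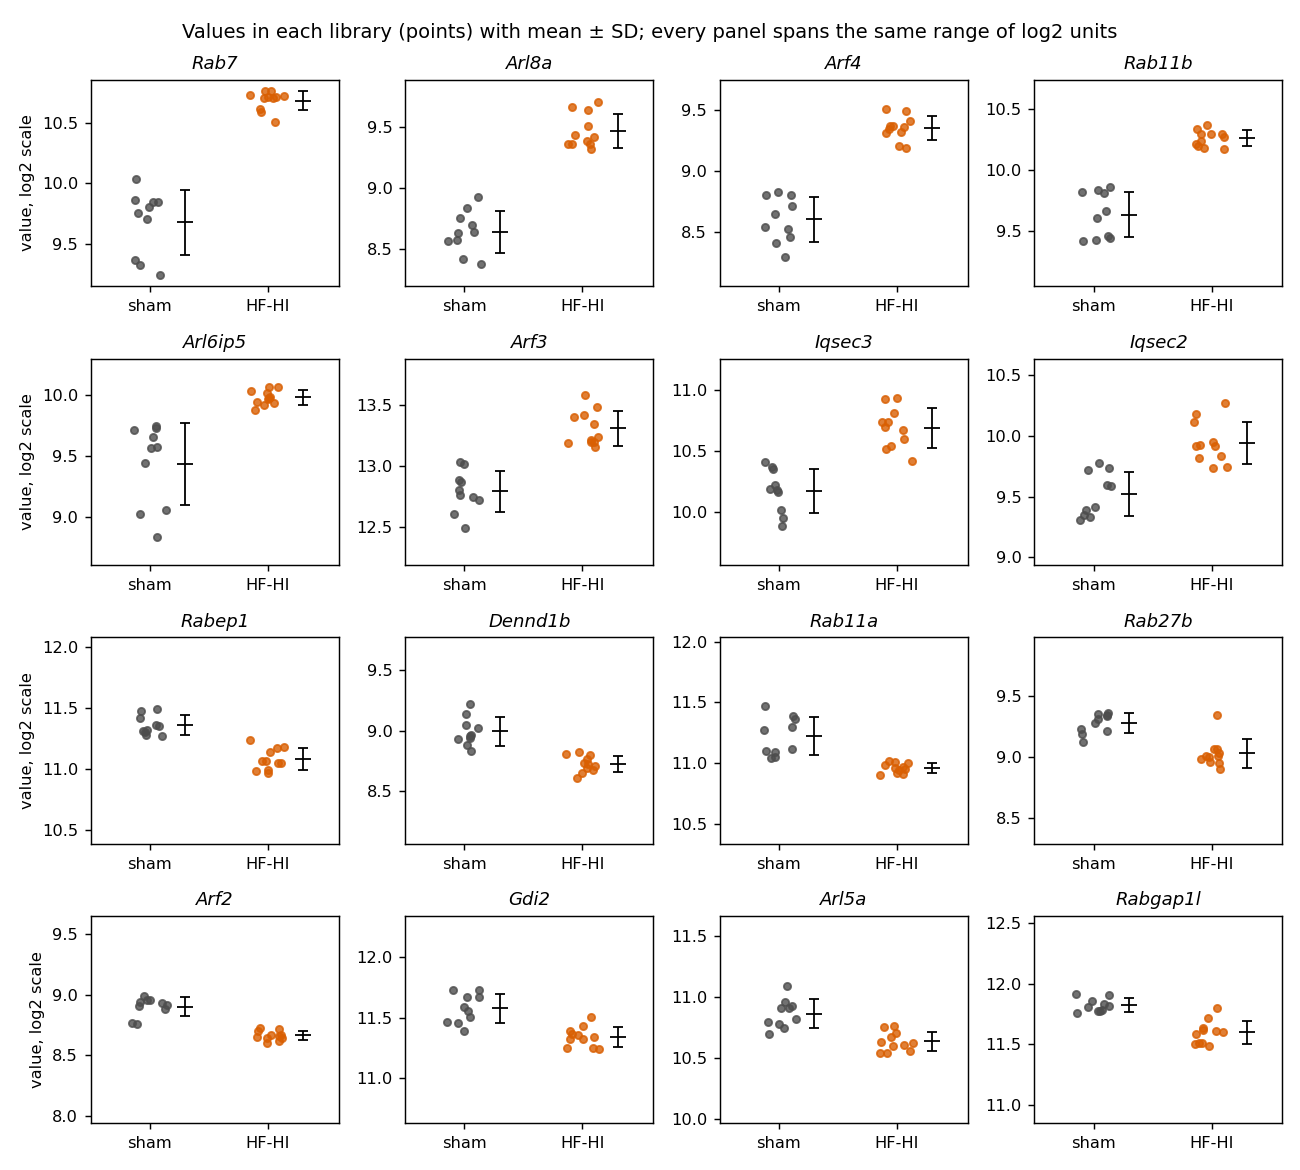
Value of 16 genes in each library (points; log2 scale, vertical axis) with the mean and 1 SD at the right of each group, sham gray and HF-HI orange. In Rab7, Arl8a, Arf4, Rab11b, Arl6ip5, Arf3 and Iqsec3 all HF-HI points lie above all sham points, and in Rabep1, Dennd1b, Rab11a and Arf2 below them.

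Rab effectors and GEFs were called in both directions. Rabep1 (rabaptin-5, ENSMUSG00000020817, chr11:70844778-70943105, plus strand), an effector of Rab5 on early endosomes, had the lowest difference of all members (HF-HI minus sham -0.28, SE 0.038, adjusted p = 1.42e-06). It ran from 11.27 to 11.50 in sham (median 11.34) and from 10.97 to 11.24 in HF-HI (median 11.07), with no overlap. The Rab11 family interacting proteins, which tie Rab11 to motors, rose in 3 of 4 cases. Rab11fip5 ran from 8.88 to 9.42 in sham (median 9.09) and from 9.26 to 9.59 in HF-HI (median 9.51). Of its HF-HI libraries 7 of 11 lay above the sham range (HF-HI minus sham 0.38, SE 0.0562, adjusted p = 4.06e-06). Rab11fip4 rose by 0.25 with no overlap, and Rab11fip3 rose by 0.17 but stood at -0.025, not called, with the GC trend removed. Rab11fip2 was at -0.062 (adjusted p = 0.0964), was called lower under both rescalings and with HF-HI replicates 9 and 11 or sham replicates 1, 2 and 3 left out, and stood at 0.025, not called, with the GC trend removed.

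Of the 8 Dennd genes 3 were higher and 4 lower (3 and 2 with the GC trend described below removed), and in 3 pairs of paralogues each went its own way. Dennd1a and Dennd1b, exchange factors of Rab35 on endocytic vesicles, went up by 0.24 (SE 0.0439, adjusted p = 6.78e-05) and down to -0.27 (SE 0.0417, adjusted p = 8.42e-06). Dennd1b ran from 8.84 to 9.22 in sham (median 8.96) and from 8.61 to 8.82 in HF-HI (median 8.72), with no overlap. Dennd1a ran from 8.46 to 8.82 in sham (median 8.60) and from 8.74 to 9.04 in HF-HI (median 8.85), with 8 of 11 HF-HI libraries above the sham range. Dennd4a and Dennd4c, exchange factors of Rab10, parted too. Dennd4a ran from 10.71 to 10.87 in sham (median 10.79) and from 10.89 to 11.07 in HF-HI (median 10.97). It rose with no overlap (HF-HI minus sham 0.19, SE 0.0268, adjusted p = 1.83e-06). Dennd4c ran from 8.72 to 8.96 in sham (median 8.83) and from 8.60 to 8.86 in HF-HI (median 8.71). It fell, with 6 of 11 HF-HI libraries under the sham range (HF-HI minus sham -0.11, SE 0.0384, adjusted p = 0.0166). Dennd4c was not called with the GC trend removed or with the sham replicates 1, 2 and 3 left out, and 16.7% of its 50-base stretches occur in Gm18537. Dennd6b ran from 8.28 to 8.70 in sham (median 8.47) and from 8.52 to 8.80 in HF-HI (median 8.66). It rose, with 4 of 11 HF-HI libraries above the sham range (HF-HI minus sham 0.16, SE 0.0561, adjusted p = 0.0132). Dennd6a ran from 8.85 to 8.95 in sham (median 8.90) and from 8.63 to 8.88 in HF-HI (median 8.78). It fell, with 10 of 11 under that range (HF-HI minus sham -0.13, SE 0.0296, adjusted p = 4.53e-04). Neither was called with the GC trend removed, nor was Dennd6b under either rescaling or without sham replicates 1, 2 and 3. Dennd5a fell by 0.21 (adjusted p = 7.19e-06), and Dennd5b was at -0.016, not called.

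**Figure D3:**
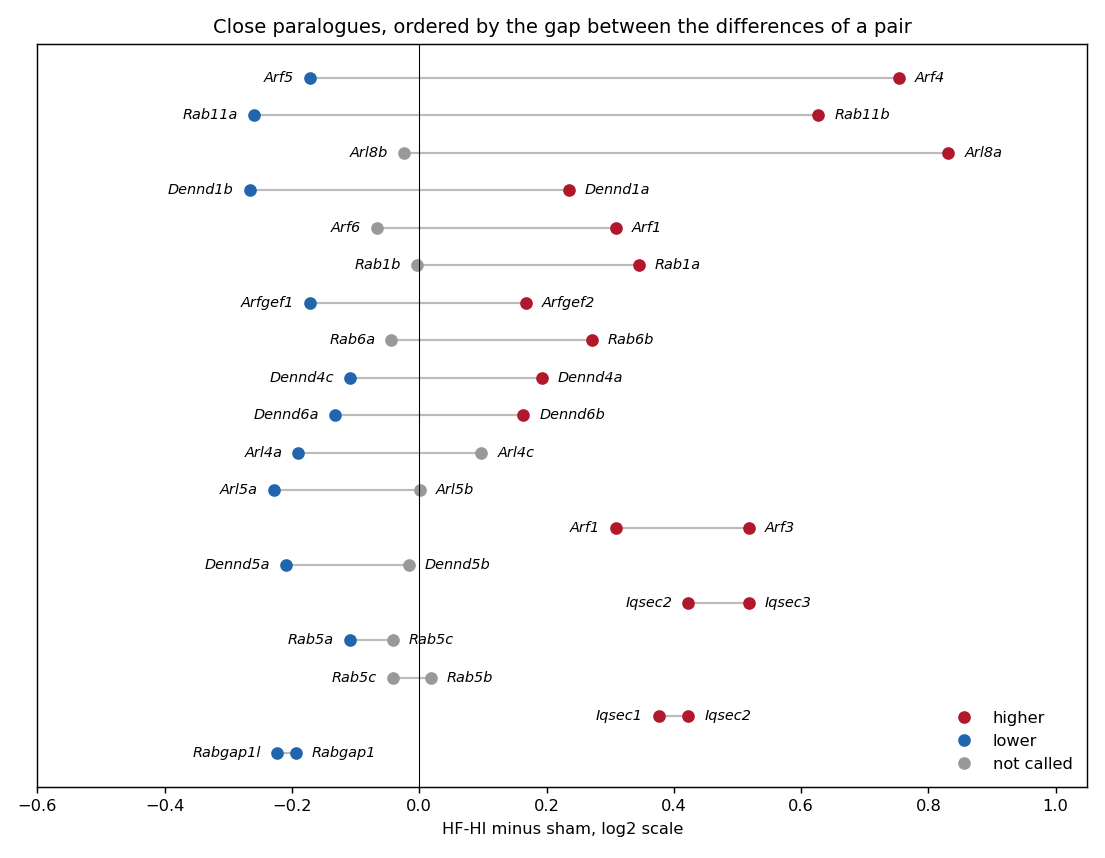
Difference between HF-HI and sham (log2 scale, horizontal axis) of both genes of pairs of close paralogues, joined by a line. Pairs with a red point (higher) and a blue point (lower) on opposite sides of 0 are led by Arf4 with Arf5 and Rab11b with Rab11a, while the Iqsec pairs lie close together on the right.

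Over the paralogue pairs, 20 of 31 had both genes in the table. In 7 the genes were called in opposite directions, in 4 in the same direction, in 8 only 1 gene was called and in 1 neither. With the GC trend removed, 4 of the 7 were called in opposite directions again, among them Rab11b with Rab11a, Arf4 with Arf5 and Dennd1a with Dennd1b.

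The Rab GAPs held 6 higher, 4 lower and 4 not called of 14, and 3 higher and 6 lower with the GC trend removed. Tbc1d14, which binds Rab11 and restrains autophagy, had the widest rise (HF-HI minus sham 0.34, SE 0.0763, adjusted p = 4.53e-04), from 8.32 to 8.77 in sham (median 8.61) to 8.57 to 9.37 in HF-HI (median 8.90). Of 11 HF-HI libraries 9 lay above the sham range, replicate 9 the highest. Tbc1d24, a synaptic protein known from inherited epilepsy, rose by 0.24, and Tbc1d5, which acts on Rab7 at the retromer, rose by 0.19 with no overlap. Tbc1d10b (0.15), Tbc1d9b (0.13) and Tbc1d9 (0.082, adjusted p = 0.0477) were called higher, but all 3 lay below 0 and were not called with the GC trend removed. Nor was Tbc1d9 called by the Wilcoxon test, under either rescaling or with HF-HI replicates 9 and 11, sham replicates 1, 2 and 3 or the 3 libraries high in Ttr left out, or Tbc1d9b with library medians centred. Rabgap1l fell the most (HF-HI minus sham -0.22, SE 0.0362, adjusted p = 1.28e-05). It ran from 11.76 to 11.92 in sham (median 11.81) and from 11.49 to 11.80 in HF-HI (median 11.60), with 10 of 11 HF-HI libraries under the sham range. Its paralogue Rabgap1 (-0.19), Tbc1d19 (-0.20) and Tbc1d23 (-0.19) were called lower too. Tbc1d8, Tbc1d16, Tbc1d20 and Tbc1d30 were not called, at -0.085, 0.027, 0.0052 and 0.00039.

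The 6 Arf GTPases, which shape Golgi and plasma membrane traffic, divided into 3 higher, 2 lower and 1 not called. Arf4 (ENSMUSG00000021877, chr14:26638074-26665084, plus strand), a Golgi Arf, rose the most. Across the libraries it ran from 8.29 to 8.83 in sham (median 8.59) and from 9.19 to 9.51 in HF-HI (median 9.36). All HF-HI libraries were higher than all sham libraries. Means over mice were 9.35 ± 0.0998 for HF-HI (SD, n = 11), with 8.60 ± 0.187 for sham (SD, n = 10), a difference of 0.75 (SE 0.0612, adjusted p = 1.06e-09). Arf3 (ENSMUSG00000051853, chr15:98736634-98763214, minus strand), a Golgi Arf abundant in brain, followed. It ran from 12.48 to 13.03 in sham (median 12.78) and from 13.15 to 13.58 in HF-HI (median 13.24). The groups did not overlap here either. On average the value was 13.31 ± 0.143 for HF-HI (SD, n = 11), with 12.79 ± 0.169 for sham (SD, n = 10), a difference of 0.52 (SE 0.0638, adjusted p = 3.52e-07). Arf1, which recruits vesicle coats at the Golgi, ran from 11.20 to 11.76 in sham (median 11.52) and from 11.65 to 11.98 in HF-HI (median 11.79). It rose (HF-HI minus sham 0.31, SE 0.0612, adjusted p = 1.29e-04), with 9 of 11 HF-HI libraries above the sham range, and by 0.21 without sham replicates 1, 2 and 3, and 10.5% of its 50-base stretches occur in other genes. Arf2 fell (HF-HI minus sham -0.24, SE 0.031, adjusted p = 9.08e-07). It ran from 8.76 to 8.99 in sham (median 8.92) and from 8.60 to 8.73 in HF-HI (median 8.66), with no overlap.

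Arf5, the closest relative of Arf4, ran from 9.51 to 10.09 in sham (median 9.95) and from 9.66 to 9.96 in HF-HI (median 9.72). It fell (HF-HI minus sham -0.17, SE 0.0549, adjusted p = 0.00838), though no HF-HI library lay under the sham range. Arf6, the Arf of the plasma membrane and endosomes, ran from 9.26 to 9.56 in sham (median 9.33) and from 9.26 to 9.40 in HF-HI (median 9.30). All HF-HI libraries lay within the sham range, and the difference did not pass the test (HF-HI minus sham -0.066, SE 0.0368, adjusted p = 0.116). Arf5 and Arf6 have the exons richest in GC among the members (62.1% and 60%), and with the GC trend removed they stood at -0.51 and -0.36, both called. Arf4 minus Arf5 within a library went from -1.32 ± 0.317 for sham (SD, n = 10) to -0.39 ± 0.151 for HF-HI (SD, n = 11), with no overlap.

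Every GEF of the Iqsec family rose. These proteins turn on Arf6 at the postsynaptic density, Iqsec1 and Iqsec2 at excitatory and Iqsec3 at inhibitory synapses. Iqsec3 (ENSMUSG00000040797, chr6:121372933-121473678, minus strand) ran from 9.89 to 10.41 in sham (median 10.18) and from 10.42 to 10.94 in HF-HI (median 10.69). The groups came close without touching (HF-HI minus sham 0.52, SE 0.0698, adjusted p = 1.21e-06). Iqsec2 ran from 9.30 to 9.78 in sham (median 9.50) and from 9.74 to 10.27 in HF-HI (median 9.92), with 9 of 11 HF-HI libraries above the sham range (HF-HI minus sham 0.42, SE 0.0726, adjusted p = 2.57e-05). Iqsec1 rose by 0.38 (adjusted p = 8.32e-07). All 3 were called higher under both rescalings and with the GC trend removed, where they stood at 0.39, 0.16 and 0.22. Of the Golgi GEFs, Arfgef2 rose (HF-HI minus sham 0.17, SE 0.0305, adjusted p = 5.16e-05) and Arfgef1 fell (HF-HI minus sham -0.17, SE 0.0398, adjusted p = 6.35e-04). Arfgef2 ran from 10.20 to 10.43 in sham (median 10.28) and from 10.37 to 10.59 in HF-HI (median 10.43), with 6 of 11 HF-HI libraries above the sham range. Arfgef1 ran from 11.25 to 11.53 in sham (median 11.41) and from 11.12 to 11.35 in HF-HI (median 11.19), with 8 of 11 under it, and was not called with the GC trend removed (adjusted p = 0.133). Arfgef3 was at -0.051 and not called. Neither Arf GAP was called: Arfgap2 was at -0.088 (adjusted p = 0.087) and ran from 8.67 to 9.01 in sham (median 8.89) and from 8.62 to 8.94 in HF-HI (median 8.83), with 2 of 11 HF-HI libraries under the sham range, while Arfgap1 was at -0.040 (adjusted p = 0.421). With the GC trend removed both were called lower. Arfgap2 shares 14.7% of its 50-base stretches with Gm15519.

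Among the Arf-like (Arl) GTPases the lysosomal one led. Arl8a (ENSMUSG00000026426, chr1:135146824-135156269, plus strand) links lysosomes and synaptic vesicle precursors to kinesin for transport down the axon. Its values ran from 8.37 to 8.93 in sham (median 8.64) and from 9.32 to 9.71 in HF-HI (median 9.42). The lowest HF-HI library stood clear of the highest sham library. The group mean was 9.47 ± 0.139 for HF-HI (SD, n = 11), with 8.64 ± 0.173 for sham (SD, n = 10), a difference of 0.83 (SE 0.0643, adjusted p = 5.4e-10). Its paralogue Arl8b was at -0.024 (adjusted p = 0.551), and Arl8a minus Arl8b did not overlap between the groups. Arl15 rose by 0.19, and by 0.12 with sham replicates 1, 2 and 3 left out. Arl3, which releases cargo in cilia, rose by 0.16 (adjusted p = 0.0477, the highest of the called members together with Tbc1d9). Arl3 was called in 6 of the 21 fits that left out 1 library, and was at 0.047 without sham replicates 1, 2 and 3 and 0.14 without the 3 libraries high in Ttr, not called in either case. Arl5a, a trans-Golgi GTPase, fell (HF-HI minus sham -0.23, SE 0.0434, adjusted p = 8.47e-05), running from 10.69 to 11.09 in sham (median 10.86) and from 10.54 to 10.76 in HF-HI (median 10.62). Of 11 HF-HI libraries 8 lay under the sham range, and Arl5b was at 0.00088. Arl4a fell by 0.19. Arl1 (-0.10, adjusted p = 0.0885) and Arl4c (0.10, adjusted p = 0.0908) lay just outside the threshold, and Arl1 shares 10.7% of its 50-base stretches with Gm18541.

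All 4 genes named as partners of Arl proteins were called. Arl6ip5 (ENSMUSG00000035199, chr6:97210689-97233315, plus strand), a membrane protein known to restrain a neuronal glutamate transporter, rose. Across the libraries it ran from 8.83 to 9.74 in sham (median 9.57) and from 9.88 to 10.07 in HF-HI (median 9.98). Sham replicates 1, 2 and 3 were again the lowest, at 8.83 to 9.05, and the other 7 lay at 9.44 to 9.74, all under the HF-HI range. Means over mice were 9.98 ± 0.0617 for HF-HI (SD, n = 11), with 9.43 ± 0.336 for sham (SD, n = 10), a difference of 0.55 (SE 0.0945, adjusted p = 2.73e-05). Without those 3 libraries the difference was 0.35, still called. Arl2bp rose by 0.22, and Arl6ip1, which shapes the endoplasmic reticulum, and Arl14ep fell (-0.16 and -0.19). The members put in no class were Rab5if (-0.22, called lower) and Rab10os, an antisense RNA that lies over 2950 bases of the Rab10 gene on the other strand. Rab10os ran from 8.503 to 9.18 in sham (median 8.79) and from 8.95 to 9.29 in HF-HI (median 9.19) and was called higher, with 6 of 11 HF-HI libraries above the sham range (HF-HI minus sham 0.35, SE 0.0694, adjusted p = 1.40e-04). The counting is not stated to use strand, so reads from the 2950 bases where Rab10os and Rab10 overlap cannot be told apart.

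Sham replicates 1, 2 and 3 were the 3 lowest sham libraries for 8 members (Rab7, Rab11fip4, Rab11fip2, Arf4, Arf1, Arl15, Arl3 and Arl6ip5) and the 3 highest for 2 (Dennd4c and Arf2). The labels give no batch, and whether these libraries share one was not tested. Without them 53 members were called, 28 higher and 25 lower, and without HF-HI replicates 9 and 11, the shallow ones, 57 were, 29 higher and 28 lower. Without the 3 libraries high in Ttr (sham replicates 3 and 8 and HF-HI replicate 3), 54 were, 30 higher and 24 lower. Over all genes, 3345, 3810 and 3468 were called in these fits, in that order. Of those calls 49.4%, 49.2% and 49.5% were higher. The sets of libraries left out were chosen after seeing the data.

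Averaged within a library and set against the mean of all libraries, the Arf GTPases stood at -0.10 ± 0.0661 for sham (SD, n = 10) and, for HF-HI, 0.088 ± 0.0316 (SD, n = 11), on the log2 scale. Each HF-HI library lay above each sham library in this mean, as it did in the mean over all 79 members (-0.035 ± 0.025 and 0.032 ± 0.0155) and over all genes of the table (-0.021 ± 0.0109 and 0.019 ± 0.00669), so this is no trait of the class. With the GC trend described below removed, the median difference of the Arf GTPases went from 0.12 to -0.068, with 3 called higher and 3 lower. The Arf GEFs stood at -0.11 ± 0.0856 (SD, n = 10) and 0.10 ± 0.0891 (SD, n = 11), with overlap, and their median difference went from 0.27 to 0.14 with the trend removed. The Rab GAPs, at -0.0098 ± 0.0166 and 0.0089 ± 0.0238, and the Rab GEFs, at 0.0092 ± 0.0302 and -0.0084 ± 0.0262, lay closer together, and their members moved both ways. These class means are descriptions and carry no test.

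**Figure D4:**
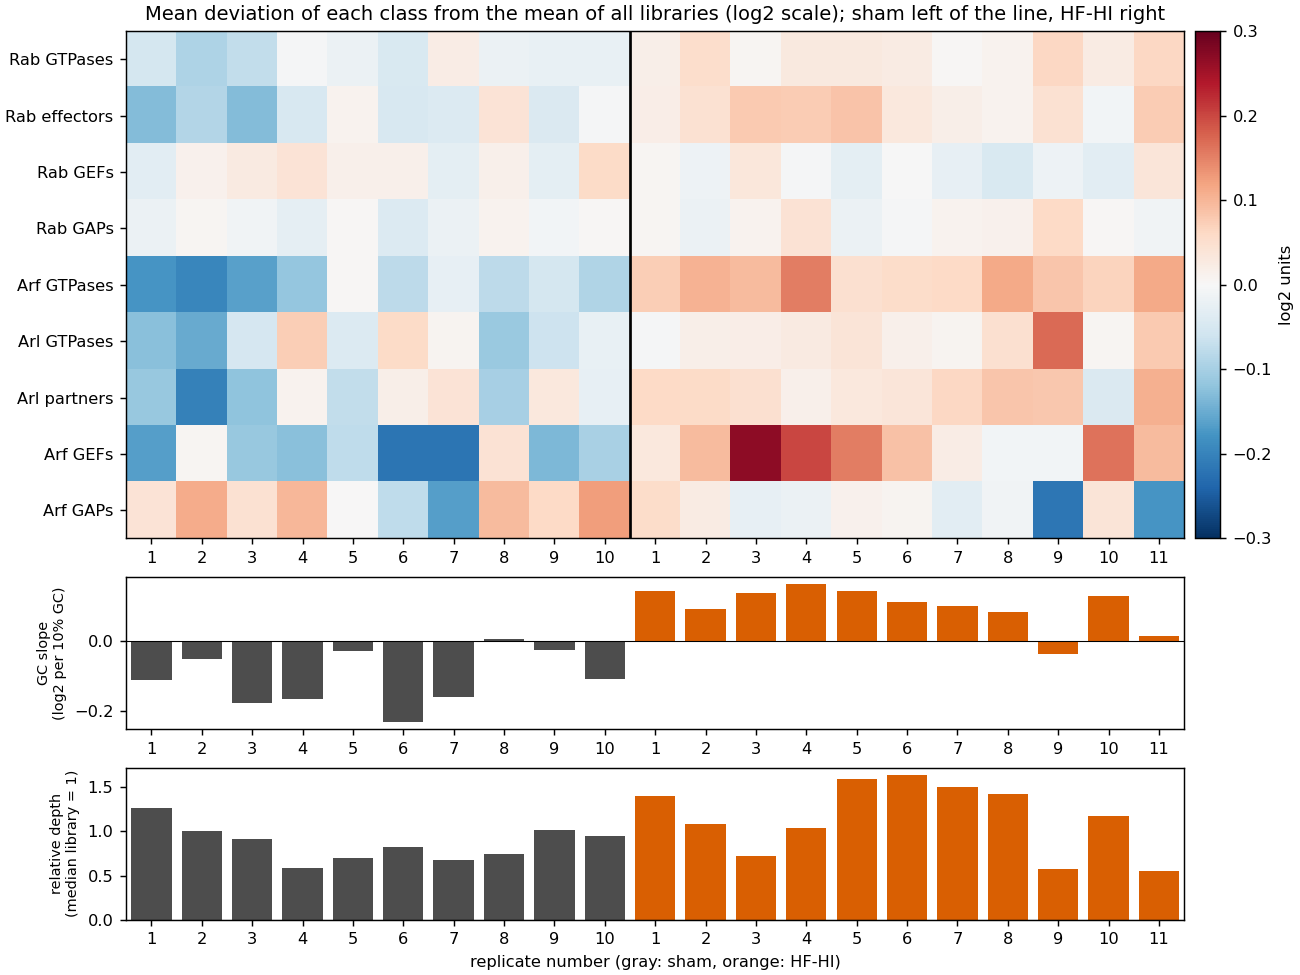
Mean deviation of each class shown from the mean of all libraries (color, log2 scale) in each library by replicate number, with sham left and HF-HI right of the black line. The bars below give each library's GC slope (log2 per 10% GC) and relative depth. The Arf GTPases and, more faintly, the Rab GTPases lie above 0 in all 11 HF-HI libraries, and HF-HI replicates 9 and 11 have the lowest GC slope and depth of their group.

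Base composition moved with the differences. The slope of a library's values on exonic GC content, in log2 units per 10% GC, ran from -0.23 to 0.0058 in sham and from -0.039 to 0.16 in HF-HI. Members called higher had a median exonic GC content of 50.7%, those called lower 42.1% and those not called 48.7%, and over the 79 members the rank correlation of the difference with GC content was 0.446 (0.48 over the 5539 genes with a GC content), a description across genes that share the same libraries. With each library's trend on GC removed, 56 members were called (70.9%, where 60.2% of all genes were), 29 higher and 27 lower. Of the 57 first called, 44 were called again in the same direction, 26 higher and 18 lower, 13 were no longer called and none turned to the other call. Removal would also take away any biological difference that follows GC content, and which holds here was not tested.

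Of the 7 members that rose by at least 0.5, all were called higher again after removal. Rab7 stood at 0.93, Arf4 at 0.81, Arl8a at 0.71, Rab11b at 0.61 and Arl6ip5 at 0.51, while Arf3 and Iqsec3 went from 0.52 each to 0.38 and 0.39. Iqsec2, the next in size, went from 0.42 to 0.16. Other called members kept their direction and call but shrank: Rab11a stood at -0.14, Rab27b at -0.12, Dennd1b at -0.15, Rabgap1l at -0.10, Gdi2 at -0.11, Rab11fip5 at 0.13, Rab11fip4 at 0.10, Arf1 at 0.17 and Arl5a at -0.10. Among members described more briefly, smaller values were seen for Rab28 at -0.083, Tbc1d23 at -0.094, Rabgap1 at -0.10, Arl2bp at 0.13, Arl14ep at -0.093 and Arfgef2 at 0.11, and larger ones for Rab18 at 0.31 and Rab15 at -0.29. The 12 members called only after removal were Rab8b, Dennd5b and Arl5b, higher, and Rab1b, Rab5c, Rab12, Tbc1d8, Tbc1d16, Tbc1d20, Arf6, Arfgap1 and Arfgap2, lower. Those no longer called were Rab5a, Rab14, Rab11fip3, Dennd4c, Dennd6a, Dennd6b, Tbc1d9, Tbc1d9b, Tbc1d10b, Tbc1d19, Arl3, Arl4a and Arfgef1.

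**Figure D5:**
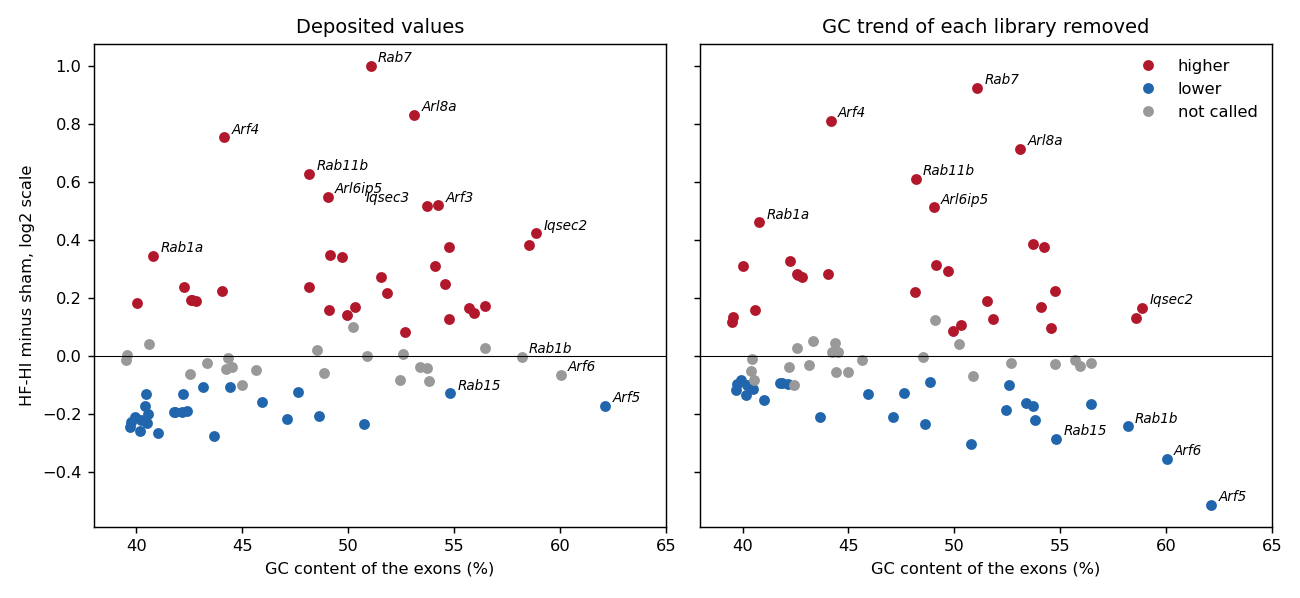
Difference between HF-HI and sham (log2 scale, vertical axis) of the 79 genes against the GC content of their exons, for the deposited values (left) and with each library's GC trend removed (right), colored by call. On the left the blue points crowd at low GC, and on the right Arf5 and Arf6 at high GC lie lowest, while Rab7, Arf4, Arl8a and Rab11b stay at the top.

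The rest of the pathway was measured in 81 genes of 9 lists, of which 57 were called (70.4%, where 66.3% of all genes were), 29 higher and 28 lower, with a median difference of -0.0019. The Rab3 family and its partners, which prime synaptic vesicles for release, held 4 higher and 3 lower of 8: Rph3a rose by 0.63, Rab3a by 0.55 and Madd, the exchange factor of Rab3, by 0.32, all with no overlap, while Rab3c fell by 0.139 and was not called with the GC trend removed. Rab3gap2 (-0.074) was called lower (adjusted p = 0.0368) and Rab3gap1 (-0.074) was not, and the call of Rab3gap2 was lost by the Wilcoxon test, with the 3 libraries high in Ttr left out and in several fits that left out 1 library. Of the 3 Rabs from Rab30 to Rab39 in the table, whose names the rule drops along with Rab3, Rab31 (-0.26) and Rab39b (-0.24, and -0.12 with the GC trend removed) fell, and Rab35 was at 0.012, with the GC trend removed at -0.13, called lower. The genes that attach lipid tails to Rabs or escort them held 2 lower of 4 (all 4 with the GC trend removed), with Chm, the Rab escort protein, at -0.32 (-0.15 with the GC trend removed).

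The other Rab GEFs held 3 higher and 5 lower of 14, led by Trappc6b, a subunit of the TRAPP complex (0.86, no overlap), and the other Rab GAPs 4 higher and 2 lower of 6, led by Sgsm2 (0.52). The other Rab effectors held 4 higher and 9 lower of 20, led by Mical3 (0.46). The other Arf GAPs held 7 higher and 1 lower of 13 (7 and 3 with the GC trend removed, where their median went from 0.31 to 0.084), Agap3 at 0.63 foremost (0.23 with the GC trend removed), where the Arfgap genes themselves were not called. The other Arf GEFs held 3 higher and 1 lower of 5 (Psd, an exchange factor of Arf6, at 0.21, and at -0.052, not called, with the GC trend removed), and the remaining Arf relatives and effectors 4 higher and 3 lower of 8 (Gga3, a sorting adaptor, at 0.40). With the GC trend removed the counts higher and lower were 4 and 1 for the Rab3 family and its partners, 3 and 7 for the other Rab GEFs, 3 and 1 for the other Rab GAPs, 7 and 9 for the other Rab effectors, 0 and 2 for the other Arf GEFs and 3 and 2 for the remaining Arf relatives. Among the other Rab effectors, 2 calls turned to the other direction with the trend removed. Rilpl1 went from 0.12, called higher, to -0.13, called lower, and Bicd1 from -0.078, called lower, to 0.088, called higher. The leading gene of each list was picked by the size of its difference.

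The table holds all 6 markers of cortical excitatory neurons, but also 6 of 7 striatal markers, so presence alone does not set cortex apart. The excitatory markers moved with the groups. Called higher were 5 of 6, among them Nrgn (1.32), Tbr1 (1.02), Slc17a7 (0.89) and Cux2 (0.57), with Neurod6 at 0.13, not called. The sums given for these lists are not divided by gene length, so the gene with the highest mean value, here Slc17a7 in both groups, weighs most in them and need not be the most abundant. The summed level of the 6 excitatory markers on the log2 scale was 13.17 ± 0.162 for sham (SD, n = 10), with 14.09 ± 0.119 for HF-HI (SD, n = 11), and ran from 12.95 to 13.40 and from 13.94 to 14.33, with no overlap. Their part in the rises of Rab7, Arf3, Arl8a or the Iqsec genes was not tested. General neuron markers held 5 higher and 1 lower of 7 (sum 16.41 ± 0.048 for sham (SD, n = 10), with 16.49 ± 0.0464 for HF-HI (SD, n = 11), highest value Map2 in sham and Snap25 in HF-HI) and inhibitory neuron markers 2 higher of 5 (sum 12.95 ± 0.11 for sham (SD, n = 10), with 12.98 ± 0.128 for HF-HI (SD, n = 11), highest value Gad1).

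Among glial and vascular lists, astrocyte markers held 3 higher and 2 lower of 8 (sum 16.09 ± 0.0487 for sham (SD, n = 10), with 16.14 ± 0.0489 for HF-HI (SD, n = 11), highest value Slc1a2) and oligodendrocyte markers 2 higher of 7 (sum 15.58 ± 0.247 for sham (SD, n = 10), with 15.70 ± 0.174 for HF-HI (SD, n = 11)). The table holds 2 of 6 endothelial markers, 1 called each way (mean sums 10.24 and 10.26 in sham and HF-HI, highest value Slco1a4 in sham and Flt1 in HF-HI). For tissue beside the cortex, striatal markers held 1 lower of 6 (13.76 and 13.71, highest value Pde10a), and neither the 1 thalamic marker in the table (Rora, 11.55 and 11.52), the 1 of choroid plexus (Ttr, 8.02 ± 1.73 for sham (SD, n = 10), with 7.98 ± 1.91 for HF-HI (SD, n = 11)) nor the 2 of red blood cells (9.96 and 10.13, highest value Hbb-bs) passed the test. Their levels varied widely within the groups, Ttr running from 6.16 to 11.51 in sham and from 6.86 to 13.35 in HF-HI and the red blood cell sum from 9.34 to 10.48 and from 9.33 to 11.26.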

How the data were processed

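Total RNA of cortex was made into stranded libraries after removal of ribosomal RNA. The authors aligned reads to mm10 with STAR, counted them per transcript with eXpress and deposited variance-stabilized values from DESeq2 on a log2 scale, for 5544 Ensembl genes and 21 libraries. The versions of STAR and eXpress and the gene annotation are not given in the sources used here. Counts were not used here, and no count model applies. All 21 value columns were matched to a labelled sample.

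Groups come from the sample labels. HF-HI was compared with sham in R 4.3.3 with the moderated test of limma 3.58.1 (variance trend on, two-sided, with p adjusted over all genes by Benjamini-Hochberg, threshold 0.05). Symbols, positions and exonic GC content came from GENCODE M21 (GRCm38, the same assembly as mm10). GC trends were removed with a lowess curve (span 0.3) per library. Shared sequence was measured in 50-base stretches of transcripts. Tables were made in Python 3.11.15 with pandas 2.3.3, numpy 2.4.6 and scipy 1.17.1, figures with matplotlib 3.10.9, and the steps were tested on simulated data. Differences between mice limit the precision: over the members the within-group SD had a median of 0.0905 (log2 scale).

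The members, lists and tests were chosen with earlier results of these data known. Full values are given for the 8 widest called members in each direction, the widest of each class, the dissociation inhibitors, Arf1 to Arf6, and paralogue pairs called in opposite directions, and members next to the threshold are named. The alternatives were a threshold of 0.1, a minimum difference of 0.25, the Wilcoxon test, no variance trend, median centring, quantile normalization, the lowest quartile of genes left out, the replicate number as a block, GC removal with and without it, each library left out, and Rab30 to Rab39 added. A depth covariate and the joint removal of HF-HI replicates 9 and 11, of sham replicates 1, 2 and 3, or of sham replicates 3 and 8 and HF-HI replicate 3 (high in Ttr), were chosen after seeing the data.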

Additional observations from a re-analysis of the deposited data

Results flagged for a closer look

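In 4 of the 79 members the sham group held 1 library far from the other 9, with a gap to its neighbor, as a share of the group's range, above Dixon's critical value for 10 samples. Chance gives such a gap in about 1 of 20 groups. Rab11fip3 was highest in sham replicate 5 at 10.09, with a gap of 0.564 of the range. Arfgap2 was lowest in sham replicate 7 at 8.67 (gap 0.533), Arf5 in sham replicate 10 at 9.51 (gap 0.522) and Rab12 in sham replicate 6 at 9.50 (gap 0.49). The 4 values lie in 4 different libraries. Rab11fip3 and Arf5 were called in each of the 21 fits that left out 1 library, while Arfgap2 and Rab12, not called with all libraries, were called in 1 of the 21 each. The HF-HI group has 11 libraries and was not examined this way.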

How the results depend on the processing

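The number of Rab and Arf genes called, 57, lay between 52 and 61 under the alternatives other than a minimum difference and a filter on low genes. A minimum difference of 0.25 left 18 (15 higher, 3 lower) of the members and 21 (16 higher, 5 lower) of the other pathway genes. The count over all genes at that difference is not given here. At 0.5, 318 of all genes were called higher and 13 lower, so this balance is not read as a trait of the members. Leaving out the lowest quartile of genes left 56 members to test, of which 39 were called, 16 of them lower. Leaving out 1 library at a time gave 55 to 58 called members, 30 to 32 higher and 25 to 27 lower, and 52 to 59 pathway genes, and 55 of the 57 calls stood in all 21 fits. Tbc1d9 was called in 8 of them and Arl3 in 6, while Rab12 was called without sham replicate 6, Rab11fip2 without HF-HI replicate 9, Arfgap2 without sham replicate 7, and Arl1 without sham replicate 2 or 8 or HF-HI replicate 9. The median difference of the members was -0.0042 and moved to -0.056 with library medians centred and -0.036 with quantile normalization, where the median of all genes moved by -0.052 and -0.037, which is the shift these scalings make. It ran from -0.015 to 0.0011 over the fits without 1 library. With Rab30 to Rab39 added, 59 genes were called and the median was -0.0064.

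No called member changed sign except with the GC trend removed. Rab18 and Arl3 lost their calls by the Wilcoxon test, under both scalings, with the block and with HF-HI replicates 9 and 11 or sham replicates 1, 2 and 3 left out. Replicate numbers do not pair the mice: the correlations of same-numbered libraries ran from -0.31 to 0.36 (median -0.135, over 0.1 in 4 of 10 pairs), and 0 libraries correlated best with their own number. The replicate block gave 55 called members (52 with GC removal), and the depth covariate 59. Over all genes, 3497 were called with the block (3083 with GC removal) and 3635 with the depth covariate.

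Some pathway genes not named above also changed sign with the GC trend removed, such as Sbf1 (from 0.070 to -0.17, called lower). These are not listed here, nor are Rilpl1 and Bicd1, whose turn is given above. For the members and the other pathway genes named above, the differences that changed sign were as follows, and the cause was not tested. With the GC trend removed: Rab5b -0.0057, Rab2a 0.045, Rab10 0.014, Rab6a 0.012, Rab11fip3 -0.025, Rab11fip2 0.025, Dennd6b -0.014, Dennd5b 0.12, Tbc1d10b -0.034, Tbc1d9b -0.028, Tbc1d9 -0.025, Tbc1d16 -0.17, Tbc1d20 -0.10, Tbc1d30 -0.071, Arl8b 0.049, Rab35 -0.13, Psd -0.052. With the block added: Rab5b -0.015, Rab2a 0.042, Rab10 0.0036, Rab6a 0.014, Rab11fip3 -0.031, Rab11fip2 0.019, Dennd6b -0.012, Dennd5b 0.12, Tbc1d10b -0.033, Tbc1d9b -0.025, Tbc1d9 -0.020, Tbc1d16 -0.17, Tbc1d20 -0.10, Tbc1d30 log2 difference -0.059, Arl8b 0.048, Rab35 -0.14, Rab3gap1 0.0018, Psd -0.052. With medians centred: Rab8b -0.010, Rab5b -0.033, Tbc1d16 -0.025, Tbc1d20 -0.047, Tbc1d30 -0.052, Arl5b -0.051, Rab35 -0.040. With quantile normalization: Rab5b -0.00056, Tbc1d16 -0.026, Tbc1d20 -0.037, Tbc1d30 -0.015, Arl5b -0.030, Rab35 -0.039. With the depth covariate: Rab2a 0.021, Dennd5b 0.011, Tbc1d16 -0.015, Tbc1d20 -0.016, Tbc1d30 -0.035. Without HF-HI replicates 9 and 11: Rab1b 0.022, Arl5b -0.0055, Rab35 -0.015. Without sham replicates 1, 2 and 3: Rab1b 0.027, Tbc1d20 -0.018, Rab35 log2 difference -0.0049. Without sham replicates 3 and 8 and HF-HI replicate 3: Rab1b 0.0099, Tbc1d20 -0.0042. Without 1 library at a time, uncalled genes crossed 0 within these ranges: Rab1b -0.029 to 0.021, Rab2a -0.037 to 0.011, Dennd5b -0.030 to 0.0042, Tbc1d16 -0.0032 to 0.056, Tbc1d20 -0.015 to 0.024, Tbc1d30 -0.014 to 0.017, Arl5b -0.015 to 0.018, Rab35 -0.0097 to 0.025. Depth in reads is unknown, so low genes carry a counting error that was not measured.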
